A study of Arabidopsis thaliana with 12 samples.

Results

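Transcript levels in rosette leaves of the Arabidopsis thaliana mutant ka120 pad4 were compared with those of ka120, to ask what the added pad4 mutation changes in the ka120 state. The 6 libraries of these genotypes, 3 each, were taken by their labels from the 12 libraries of the series, and 22351 genes passed the filter on low counts and were tested. The ka120 pad4 plants carry mutations in both KA120 and PAD4, the ka120 plants carry the KA120 mutation alone, and both are in the Col-0 background, so the KA120 mutation is shared by the groups compared. The wild type Col-0 and the mutant ka120 ndr1, 3 libraries each, serve here as further points of reference. Leaves came from untreated plants 3 weeks old, raised in soil at 22 °C in days of 16 h light and 8 h dark, and each RNA sample came from about 50 mg of leaf. The sources used here do not name the mutant alleles, and a pad4 single mutant was not analysed here, so an effect of pad4 that needs no ka120 mutation cannot be told apart from one that does. Whether replicates were separate plants is not stated in the labels, so p-values reflect only how much these libraries vary, which may be technical.

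PAD4 is a lipase-like protein that pairs with EDS1 to pass on signals from TIR-type NLR receptors, intracellular immune receptors that sense pathogen effectors or their action. The pair acts with the helper NLRs of the ADR1 group and feeds a loop in which salicylic acid (SA), made by isochorismate synthase, raises the expression of EDS1, PAD4 and the SA synthesis genes themselves. KA120 is a nuclear transport receptor of the importin-beta family. Leaves with active SA signalling are known to make secreted pathogenesis-related proteins and the endoplasmic reticulum (ER) chaperones that fold them, and to hold back photosynthesis and growth genes.

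Total counts ran from 71290882 to 71948016 in ka120 pad4 libraries and from 78305746 to 85884840 in ka120 libraries. Levels below are CPM, counts per 1000000 of the effective size of each library and differences are log2 fold changes, ka120 pad4 over ka120, ± an approximate standard error. Adjusted p-values are Benjamini-Hochberg values from edgeR's quasi-likelihood test over all genes tested, and a gene is called changed where its adjusted p is under 0.05. Mesophyll genes were abundant, while the root gene EXPA7 had 0 counts in every library of the 2 groups and the meristem gene WUS had at most 8. Other root and meristem markers were present. The root gene SHR averaged 16.1 CPM in both groups, and the root gene WOX5 had 22 to 36 counts per library. The meristem gene STM averaged 5.27 CPM in ka120 pad4 and 4.45 CPM in ka120. The flower gene AG averaged 3.16 CPM in ka120 pad4 and 1.73 CPM in ka120 (adjusted p = 0.025), and the phloem gene SUC2 averaged 157 CPM in ka120 pad4 and 121 CPM in ka120 (adjusted p = 0.00763), while the other 2 flower and 2 phloem markers passed no test. Their part in the results was not tested. In these bulk leaf samples, fewer cells of a type and less RNA per cell cannot be told apart.

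The libraries of a genotype were not alike. On a principal component that held 44.6% of the variance of the 6 libraries, ka120 pad4 replicates 1, 2 and 3 lay at 61.97, 25.02 and 41.92, and ka120 replicates 1, 2 and 3 at -51.32, -54.85 and -22.75. Thus ka120 pad4 replicate 2 and ka120 replicate 3 lay nearest to the other genotype. Correlations of log2 CPM over genes, which are not independent replicates, were 0.9758 to 0.9781 within ka120 pad4, 0.9803 to 0.9829 within ka120 and 0.9565 to 0.9747 between the genotypes. Many results that rest on single libraries are given with and without them, though not every one.

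Of the genes tested, 4072 were called changed, 2196 (9.83%) higher and 1876 (8.39%) lower in ka120 pad4. The lower calls were larger, with a median log2 difference of -0.59, against 0.43 among the higher calls and 0.004 over all genes tested. At least 2-fold changes were called for 661 genes, 178 higher and 483 lower, and at least 4-fold changes for 34 higher and 147 lower. Scaling by total counts alone turned the split of calls from 53.9% higher into 34.0% higher. The count depends on single libraries: it was 2400 without ka120 pad4 replicate 1, 2415 without ka120 pad4 replicate 3, 2205 without ka120 replicate 1 and 1885 without ka120 replicate 2.

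**Figure D1:**
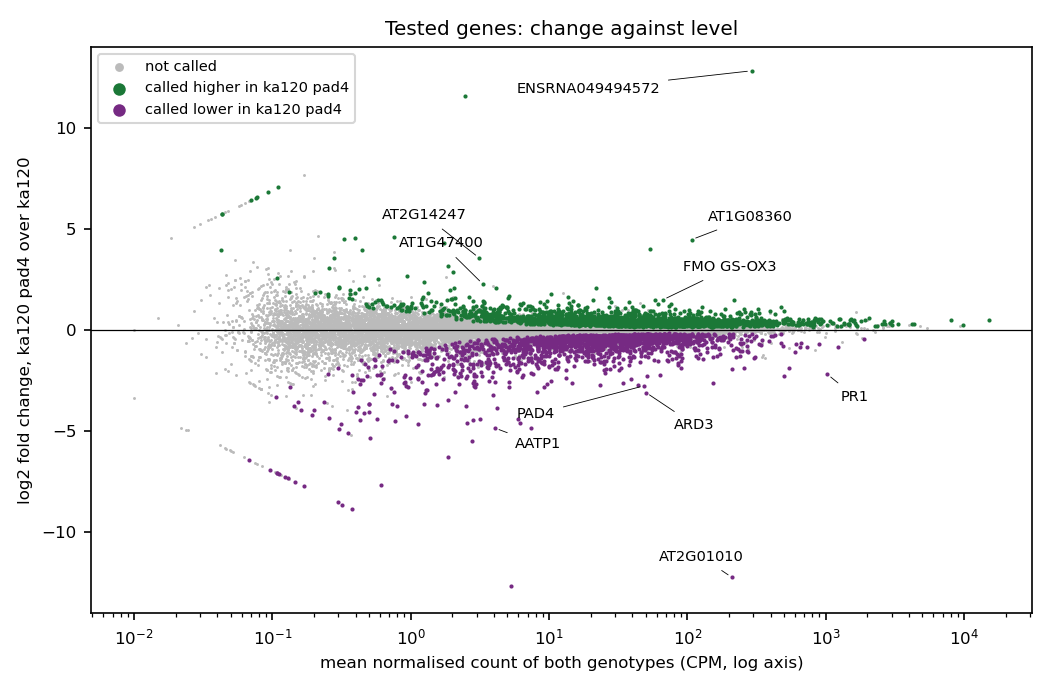
Each point is a gene: the horizontal axis is its mean level (CPM, log axis, lowest means drawn at the left edge) and the vertical axis the log2 difference, ka120 pad4 over ka120, with called genes coloured. Calls 4-fold or more lower (147) outnumber those 4-fold or more higher (34).

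PAD4 (AT3G52430, chromosome 3, 19431095 to 19434450 in TAIR10.1) was transcribed in the mutant libraries. It stood at 7.73, 19.1 and 11.2 CPM in ka120 pad4, against 94.0, 107 and 54.6 CPM in ka120 and 5.26, 4.6 and 5.54 CPM in Col-0. Every ka120 pad4 library lay below every ka120 library, with a log2 difference of -2.75 ± 0.32 (adjusted p = 0.000853), yet PAD4 was above Col-0 by 1.3 ± 0.32 (adjusted p = 0.00625). Since the allele is not given, this level neither checks nor contradicts the label. The locus AT3G08960, taken as KA120 from background knowledge, had 4.83, 3.64 and 3.96 CPM in ka120 pad4, 4.99, 4.8 and 6.03 CPM in ka120 and 24.2, 33.0 and 30.4 CPM in Col-0. Both mutants were thus low at that locus and overlapped each other (log2 difference -0.35 ± 0.14, adjusted p = 0.118).

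All 4 tested members of the EDS1 and PAD4 family were lower in ka120 pad4, with a median log2 difference of -1.22 against 0.004 over all genes. The 4 include PAD4 itself, the gene mutated in ka120 pad4 but not in ka120. The count and the median are therefore not of its relatives alone. EDS1, the partner of PAD4, had 32.1, 83.2 and 41.9 CPM in ka120 pad4, against 127, 129 and 77.4 CPM in ka120. The groups overlapped, because ka120 pad4 replicate 2 exceeded ka120 replicate 3, and the difference was -1.08 ± 0.31 (adjusted p = 0.0303). SAG101, the other partner of EDS1, had 18, 30.5 and 23.8 CPM in ka120 pad4 and 45.2, 48.5 and 33.4 CPM in ka120, with no overlap (-0.82 ± 0.19, adjusted p = 0.0122). The SAG101 call was lost without ka120 replicate 2. AT3G48080, a neighbour of EDS1 of the same family, fell by 1.36 ± 0.39 on the log2 scale (adjusted p = 0.0299); how reads of the neighbouring copies were split is not known. The family count was 2 without ka120 pad4 replicate 1 or 3 or ka120 replicate 1, and 1 without ka120 replicate 2.

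Of 11 tested genes of SA synthesis and its activators, 5 were lower and 0 higher, with a median of -0.85. PBS3, which conjugates isochorismate on the way to SA, had 7.40, 32.0 and 14 CPM in ka120 pad4, against 91.8, 102 and 59.9 CPM in ka120 and 3.68, 4.67 and 4.68 CPM in Col-0. The mutant groups did not overlap, and the difference was -2.25 ± 0.41 (adjusted p = 0.00375). EDS5, the exporter of isochorismate from plastids, had 16.3, 25.6 and 17.8 CPM in ka120 pad4, against 60.1, 69.9 and 41.6 CPM in ka120 (-1.52 ± 0.20, adjusted p = 0.00118). EDS16, the isochorismate synthase itself, had 26.4, 68.7 and 32.5 CPM in ka120 pad4 and 125, 124 and 88.8 CPM in ka120 (-1.40 ± 0.29, adjusted p = 0.00681). The paired transcription factors SARD1 and CBP60G, which switch on this pathway, fell by 1.07 ± 0.30 (adjusted p = 0.0287) and by 1.06 ± 0.33 (adjusted p = 0.0448) on the log2 scale. WRKY46, WRKY70 and WRKY53 were not called, with differences of -0.85 ± 0.35, -0.74 ± 0.36 and -0.52 ± 0.26. The count of lower genes was 3 without ka120 pad4 replicate 1 or 3 and without ka120 replicate 1 or 2.

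Among genes that turn SA over, 2 of 6 tested were lower, with a median of -1.31. DMR6, an SA hydroxylase that lowers the free pool, had 131, 249 and 146 CPM in ka120 pad4 and 483, 529 and 310 CPM in ka120, without overlap (-1.33 ± 0.27, adjusted p = 0.00595). AT4G10500, an oxygenase of the same superfamily, had 4.34, 25.4 and 7.84 CPM in ka120 pad4 and 72.0, 83 and 42.0 CPM in ka120 (-2.39 ± 0.53, adjusted p = 0.00959). The SA glucosyltransferases UGT74F1 and UGT74F2, at 0.08 ± 0.24 and 0.11 ± 0.19, were not called. On the perception side, 3 of 11 were lower (median -0.35), 1 of 11 when ka120 pad4 replicate 1 or 3 or ka120 replicate 1 or 2 was left out, and 5 of 11 without ka120 replicate 3. The SA receptor gene NPR1 had 32.9, 45.1 and 34.9 CPM in ka120 pad4 and 62.4, 63.3 and 48.5 CPM in ka120 (-0.63 ± 0.13, adjusted p = 0.00818). The other 2, the NPR1 partner NIMIN1 (adjusted p = 0.0448) and the transcription factor TGA3 (adjusted p = 0.0301), lost their calls without any 1 of those 4 libraries.

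Of 7 pathogenesis-related genes, 5 were lower, with a median of -1.55. PR1, the standard marker of SA signalling, had 160, 634 and 320 CPM in ka120 pad4, against 1666, 2005 and 1397 CPM in ka120. Every ka120 pad4 library lay below every ka120 library (-2.19 ± 0.39, adjusted p = 0.00343), while PR1 had at most 0.0674 CPM in Col-0. BGL2, a beta-1,3-glucanase also known as PR2, had 137, 388 and 168 CPM in ka120 pad4 and 952, 943 and 657 CPM in ka120 (-1.88 ± 0.32, adjusted p = 0.00282). The chitinase gene CHI had 14.2, 29.6 and 23.3 CPM in ka120 pad4 and 128, 118 and 67.1 CPM in ka120 (-2.22 ± 0.30, adjusted p = 0.00119). PR5 fell by less, with 357, 770 and 457 CPM in ka120 pad4 and 1046, 1022 and 721 CPM in ka120 (-0.82 ± 0.24, adjusted p = 0.035). Its groups overlapped, and its call was lost without ka120 pad4 replicate 1 or 3 or ka120 replicate 1 or 2. PR4 and HCHIB, which answer mainly to jasmonate and ethylene, were not called, at 0.37 ± 0.23 (adjusted p = 0.317) and 0.73 ± 0.29 (adjusted p = 0.11). The count of lower PR genes was 3 without ka120 replicate 1 or 2.

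The enzymes that make the systemic signal N-hydroxypipecolic acid include ALD1 and FMO1. ALD1 had 0.111, 0.889 and 1.62 CPM in ka120 pad4 and 3.85, 5.22 and 2.17 CPM in ka120, and FMO1 had 0.443, 2.80 and 1.18 CPM in ka120 pad4 and 4.64, 5.43 and 2.75 CPM in ka120. Neither passed the test (adjusted p = 0.0618 and 0.0814). Of the 6 tested genes of that list, 3 were lower (1 without ka120 replicate 1), led by the aspartyl protease gene AT5G10760 with 119, 238 and 147 CPM in ka120 pad4 and 474, 487 and 350 CPM in ka120 (-1.38 ± 0.23, adjusted p = 0.00275). Also lower were EDA39 (-0.75 ± 0.17, adjusted p = 0.0107) and AT5G52810, another synthesis gene. The AT5G52810 difference ran from -1.21 to -0.58 with single libraries left out. Its call was lost without ka120 pad4 replicate 1 or 3 or ka120 replicate 1 or 2.

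**Figure D2:**
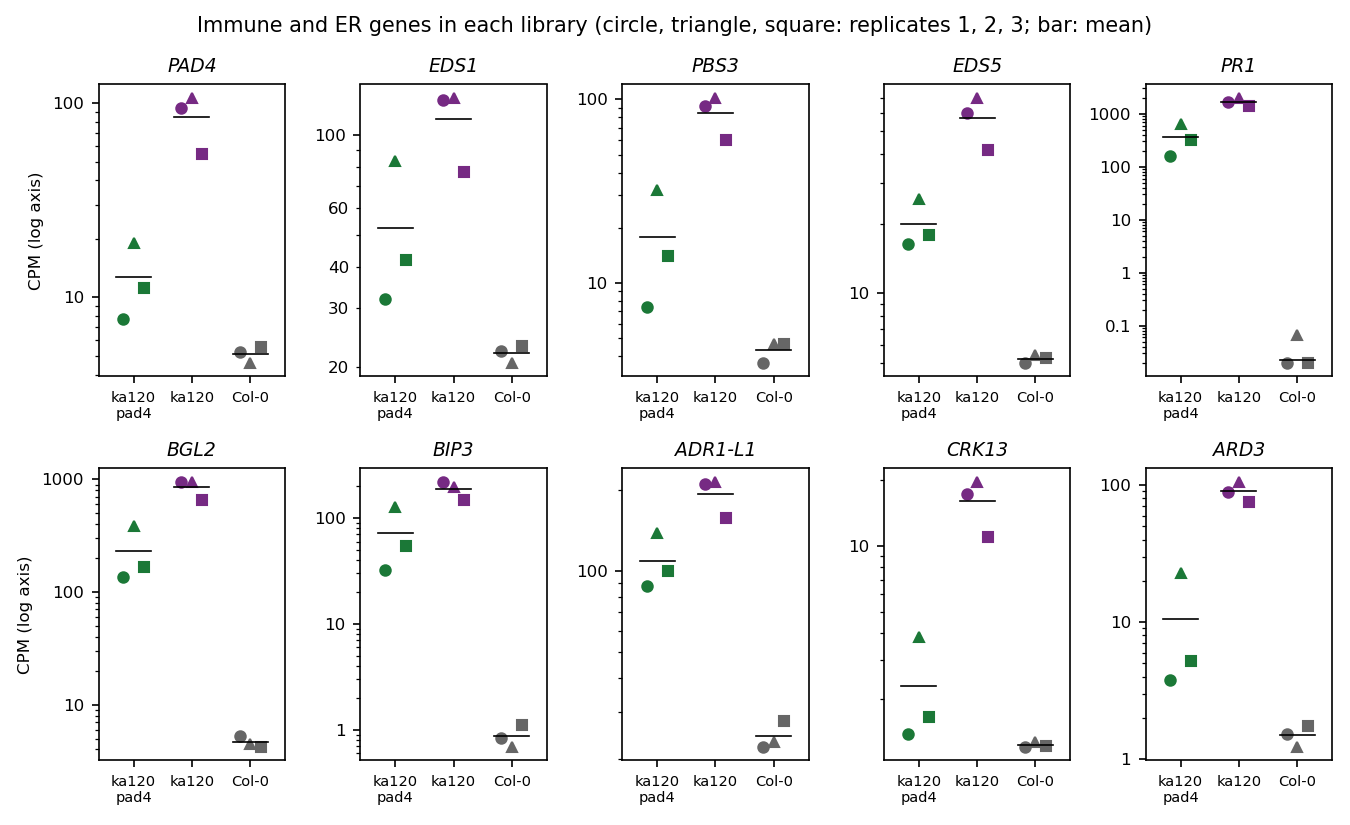
Levels (CPM, log axis) of 10 genes in each library of ka120 pad4, ka120 and Col-0; marker shapes give the replicate number, bars the mean of 3 libraries, and values of 0 are drawn at the bottom. PR1 lies at 160 to 634 CPM in ka120 pad4, 1397 to 2005 CPM in ka120 and at most 0.0674 CPM in Col-0, and ka120 pad4 replicate 2 is the highest of its group in each panel.

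Many of these genes were still above Col-0. In ka120 pad4 against Col-0, 4831 genes (21.6%) were higher and 4547 (20.3%) lower, and in ka120 against Col-0, 6252 (28.0%) were higher and 6024 (27.0%) lower; these comparisons share libraries with each other and with the one above. PR1, BGL2, CHI, PBS3, EDS5, EDS16, EDS1 and SAG101 were all called higher than Col-0 in both mutants. EDS5 differed from Col-0 by 1.93 ± 0.21 in ka120 pad4 and by 3.45 in ka120, and PBS3 by 2.04 ± 0.42 in ka120 pad4 and by 4.28 in ka120. SARD1 differed from Col-0 by 3.57 ± 0.34 in ka120 pad4 and by 4.64 in ka120. All 7 PR genes were called above Col-0 in ka120 pad4 (median 4.42) and in ka120 (median 5.24). Of the SA genes tested, 8 of 11 for synthesis and activators (1 lower), 3 of 6 for turnover and 8 of 11 for perception were called above Col-0 in ka120 pad4. TGA3 was not among them (0.36 ± 0.16, adjusted p = 0.0895).

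Of 25 tested NLR genes, 17 were lower and 0 higher in ka120 pad4, with a median log2 difference of -0.45, and 8 were not called. The lowest estimate was that of AT1G17615, with 0, 0.0673 and 0 CPM in ka120 pad4, 1.09, 0.831 and 1.04 CPM in ka120 and 0 CPM in all 3 Col-0 libraries (adjusted p = 0.00349); its fold rests on very few counts and is not given. ADR1, a helper NLR that works with the EDS1 and PAD4 pair, had 29.4, 33.0 and 31.7 CPM in ka120 pad4 and 51.4, 55.0 and 43.4 CPM in ka120, and its relative ADR1-L1 had 87.5, 138 and 99.8 CPM in ka120 pad4 and 209, 214 and 156 CPM in ka120. Neither pair of groups overlapped (-0.67 ± 0.09, adjusted p = 0.00144, and -0.83 ± 0.18, adjusted p = 0.00838). ADR1-L2 fell too (-0.51 ± 0.13, adjusted p = 0.02). The TIR-type receptor genes RPP4 (-0.91 ± 0.16, adjusted p = 0.00343) and SNC1 (-0.45 ± 0.10, adjusted p = 0.0084) lie in a cluster of near-identical genes, so how their reads were split is uncertain. SNC1 had 205, 226 and 185 CPM in ka120 pad4 and 291, 304 and 244 CPM in ka120. AT1G17600, another TIR-type receptor gene, had 10.2, 13.0 and 10.7 CPM in ka120 pad4 and 19.7, 21.1 and 18.1 CPM in ka120 (-0.80 ± 0.14, adjusted p = 0.00301). The coiled-coil receptor genes RPS2, RPM1 and ZAR1 were lower by 0.58 ± 0.14, 0.36 ± 0.09 and 0.61 ± 0.16 on the log2 scale, all called. The count of 17 dropped to 11 and 10 without ka120 pad4 replicates 1 and 3, and to 9 without ka120 replicate 1 or 2.

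At the cell surface, 22 of 48 receptor-like proteins (RLPs) and 19 of 41 genes listed as cysteine-rich receptor-like kinases (CRKs) were lower, and 2 RLPs and 4 CRKs were higher (medians -0.60 and -0.77). The CRK list was drawn by gene symbol. It also holds AT2G41140 and AT2G46700, relatives of calcium-dependent protein kinases, so its counts are not of the receptor family alone. Both families include neighbouring near-identical copies between which reads may be split. RLP28 had 1.6, 2.61 and 2.14 CPM in ka120 pad4, 12.2, 10.2 and 9.66 CPM in ka120 and 0 CPM in all 3 Col-0 libraries (-2.33 ± 0.22, adjusted p = 0.000682). RLP32 had 10.2, 13.5 and 11.4 CPM in ka120 pad4 and 40.2, 39.5 and 25 CPM in ka120 (-1.58 ± 0.17, adjusted p = 0.000682). CRK13, whose overexpression is known to raise SA, had 1.38, 3.84 and 1.65 CPM in ka120 pad4, 17.3, 19.7 and 11 CPM in ka120 and 1.2, 1.26 and 1.22 CPM in Col-0. It fell by 2.80 ± 0.34 against ka120 (adjusted p = 0.000904) and passed no test against Col-0 (0.90 ± 0.36, adjusted p = 0.063). CRK4 had 31.4, 45.3 and 35.8 CPM in ka120 pad4 and 118, 114 and 88.1 CPM in ka120 (-1.51 ± 0.15, adjusted p = 0.000466). Lower CRKs numbered 10 without ka120 pad4 replicate 1 or 3 and 9 without ka120 replicate 1 or 2, and lower RLPs 14 without ka120 pad4 replicate 1 and 13 without ka120 replicate 2. The counts of higher members did not hold either, at 1 or 2 CRKs without any 1 of the 6 libraries and 0 RLPs without ka120 pad4 replicate 1 or 3 or ka120 replicate 1 or 2.

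Of 20 genes of pattern-triggered immunity, which senses microbial molecules at the cell surface, 7 were lower and 1 higher (median -0.44). SOBIR1, the adaptor kinase of RLPs, had 125, 254 and 145 CPM in ka120 pad4 and 403, 409 and 271 CPM in ka120 (-1.05 ± 0.26, adjusted p = 0.016). The chitin receptor gene CERK1 (-0.49 ± 0.11, adjusted p = 0.0113), the cytoplasmic kinase gene BIK1 (-0.39 ± 0.09, adjusted p = 0.0122) and the receptor gene EFR (-0.65 ± 0.15, adjusted p = 0.0128) were also lower. CERK1 lost its call without ka120 replicate 2, and BIK1 without that library or ka120 pad4 replicate 1. The flagellin receptor gene FLS2 (0.12 ± 0.13, adjusted p = 0.562) and the co-receptor gene BAK1 (-0.23 ± 0.09, adjusted p = 0.103) were not called. RBOHD, the NADPH oxidase of the immune oxidative burst, had 52.3, 52.4 and 56.1 CPM in ka120 pad4 and 46.6, 47.6 and 40.5 CPM in ka120 (0.26 ± 0.08, adjusted p = 0.0363), a call lost when any 1 of the 6 libraries other than ka120 pad4 replicate 2 was left out or when counts were scaled by their totals alone. The count of 7 lower genes was 2 without ka120 pad4 replicate 1, 4 without ka120 replicate 1 and 1 without ka120 replicate 2.

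Of 60 tested WRKY factors, which bind W-boxes in defence promoters, 15 were lower and 2 higher (median -0.49). WRKY60 had 14.6, 26.3 and 19.1 CPM in ka120 pad4 and 41.2, 45.5 and 36.5 CPM in ka120 (-1.04 ± 0.20, adjusted p = 0.00489). WRKY38 had 0.0553, 0.606 and 0.0823 CPM in ka120 pad4, 6.14, 8.34 and 1.73 CPM in ka120 and 0 CPM in all 3 Col-0 libraries (-4.43 ± 0.94, adjusted p = 0.0101). WRKY69 was one of the 2 that rose (0.83 ± 0.21, adjusted p = 0.018). Lower WRKY genes numbered 4 without ka120 pad4 replicate 1 or ka120 replicate 1, and 5 without ka120 pad4 replicate 3 or ka120 replicate 2; higher ones numbered 1 without ka120 pad4 replicate 1 and 0 without ka120 pad4 replicate 3 or ka120 replicate 1 or 2.

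Genes listed under restraint of immunity moved both ways, with 6 of 13 lower and 2 higher (median -0.32). NUDT6, a nudix hydrolase whose role in restraint is uncertain, had 6.40, 20.1 and 9.04 CPM in ka120 pad4 and 84.1, 92.7 and 53.0 CPM in ka120 (-2.69 ± 0.35, adjusted p = 0.00107). The copine genes BON1 and BON3, whose proteins hold back NLR activity, fell by 0.84 ± 0.19 (adjusted p = 0.0111) and 1.51 ± 0.26 (adjusted p = 0.00293) on the log2 scale. The 2 higher genes encode the cyclic nucleotide-gated channels DND1 (CNGC2) and CNGC4, loss of which is known to give autoimmune plants. DND1 had 136, 107 and 129 CPM in ka120 pad4, 80.8, 76.5 and 101 CPM in ka120 and 145, 160 and 143 CPM in Col-0 (0.53 ± 0.13, adjusted p = 0.0169). CNGC4 had 29.4, 23.2 and 28.9 CPM in ka120 pad4 and 21.6, 20.9 and 20.8 CPM in ka120 (0.37 ± 0.08, adjusted p = 0.0113). The lower count was 3 without ka120 replicate 2; of the channel genes, 0 were called without ka120 pad4 replicate 1 or 3 and 1 without ka120 replicate 1 or 2.

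Protein folding in the ER was the list with the highest share of lower genes among those of more than 4 tested members, at 19 of 22, with 0 higher and a median of -0.81. BIP3, the stress-induced ER HSP70, had 32.5, 128 and 54.1 CPM in ka120 pad4, 220, 198 and 149 CPM in ka120 and 0.830, 0.691 and 1.12 CPM in Col-0. The mutants did not overlap (-1.40 ± 0.37, adjusted p = 0.0199), although the call was lost without ka120 pad4 replicate 3 or ka120 replicate 1 or 2. UTR1, a nucleotide-sugar transporter, had 21.0, 40.7 and 27.4 CPM in ka120 pad4 and 66.2, 68.7 and 51.2 CPM in ka120 (-1.06 ± 0.20, adjusted p = 0.00495). The calreticulin gene CRT1a had 268, 375 and 306 CPM in ka120 pad4 and 492, 481 and 423 CPM in ka120 (-0.56 ± 0.10, adjusted p = 0.00443). The calnexin gene CNX1, the disulfide isomerase genes PDIL1-1 and PDIL1-2 and the ER HSP90 gene SHD were lower by 0.70 to 1.02 on the log2 scale. The 3 members without a call were the stress transcription factor gene BZIP60 (-0.53 ± 0.19, adjusted p = 0.0759), ERO2 and IRE1-1. Without ka120 pad4 replicate 3 or ka120 replicate 1 or 2, 11 of the list were lower.

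The ER stress response element (ERSE), bound by bZIP factors with NF-Y, was searched in the 300 bases before each annotated gene start as CCAAT, any 9 bases, then CCACG, on both strands. It stood before 2 of 22 ER folding genes (9.09%), 22 of 1874 lower genes (1.17%), 9 of 2188 higher genes (0.411%) and 87 of 22100 genes with such a window (0.394%). The ERSE-II form, ATTGG, any 1 base, then CCACG, which is another motif, was in 16 of the 22100 windows (0.0724%) and in 0 of the ER list. Both matching promoters are shown because their genes are the ER members in which the element was found, in TAIR10.1 sequence from 5′ to 3′ with the match in capitals. PDIL1-2 lies on the plus strand with its window at chr1:29126348-29126647 and the match starting at position -64 from the gene start; SHD lies on the minus strand with its window at chr4:12556059-12556358 and the match starting at -22.
PDIL1-2: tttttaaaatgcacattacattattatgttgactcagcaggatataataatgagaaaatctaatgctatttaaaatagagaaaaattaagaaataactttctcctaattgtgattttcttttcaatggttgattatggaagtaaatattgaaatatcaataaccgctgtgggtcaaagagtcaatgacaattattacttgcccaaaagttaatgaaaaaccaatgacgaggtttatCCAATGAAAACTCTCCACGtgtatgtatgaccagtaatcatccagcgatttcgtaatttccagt
SHD: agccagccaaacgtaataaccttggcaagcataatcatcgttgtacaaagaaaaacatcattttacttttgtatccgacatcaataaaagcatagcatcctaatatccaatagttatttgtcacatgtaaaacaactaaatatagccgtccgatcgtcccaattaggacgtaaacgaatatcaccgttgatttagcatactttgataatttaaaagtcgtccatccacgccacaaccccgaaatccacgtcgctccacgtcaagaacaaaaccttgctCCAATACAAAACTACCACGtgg
PDIL1-2, a disulfide isomerase, had 76.0, 164 and 108 CPM in ka120 pad4 and 236, 242 and 184 CPM in ka120 (-0.93 ± 0.21, adjusted p = 0.0106). SHD had 646, 1230 and 789 CPM in ka120 pad4 and 1720, 1715 and 1293 CPM in ka120 (-0.83 ± 0.19, adjusted p = 0.0117). Neither gene's groups overlapped, and 17 of the 19 lower ER genes held no such match in this window. The W-box core TTGAC, on both strands, was in 1067 of 1874 lower promoters (56.9%), 1017 of 2188 higher promoters (46.5%) and 11105 of 22100 in all (50.2%). A match is a string of letters and not a tested site.

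The spread between libraries ran through several lists. For each list, the deviation of its members from the mean of the 6 libraries was summarised by the median, on the log2(CPM + 1) scale. For the EDS1 and PAD4 family, the mutated gene PAD4 included, it was -1.31, 0.07 and -0.78 in ka120 pad4 replicates 1, 2 and 3, and 0.84, 0.91 and 0.16 in ka120 replicates 1, 2 and 3. For the PR genes it was -1.49, -0.10 and -0.57 in ka120 pad4 and 0.96, 0.98 and 0.27 in ka120. For ER folding it was -0.74, 0.04 and -0.47 in ka120 pad4 and 0.51, 0.53 and 0.17 in ka120. In each of these 3 lists ka120 pad4 replicate 1 was lowest, ka120 pad4 replicate 2 was the highest of its genotype, and ka120 replicate 3 was the lowest of its genotype. Aliphatic glucosinolate genes ran the other way, at 0.63, 0.15 and 0.36 in ka120 pad4 and -0.45, -0.54 and -0.19 in ka120. The medians of ka120 pad4 and ka120 did not overlap in these 4 lists. They overlapped for SA synthesis, at -0.99, 0.10 and -0.48 in ka120 pad4 and 0.66, 0.87 and 0.01 in ka120, and also for SA perception and the wall-associated kinases. In the NLRs and CRKs, ka120 pad4 replicate 3 lay lowest, at -0.31 and -0.37, with replicate 1 at -0.30 and -0.35.

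**Figure D3:**
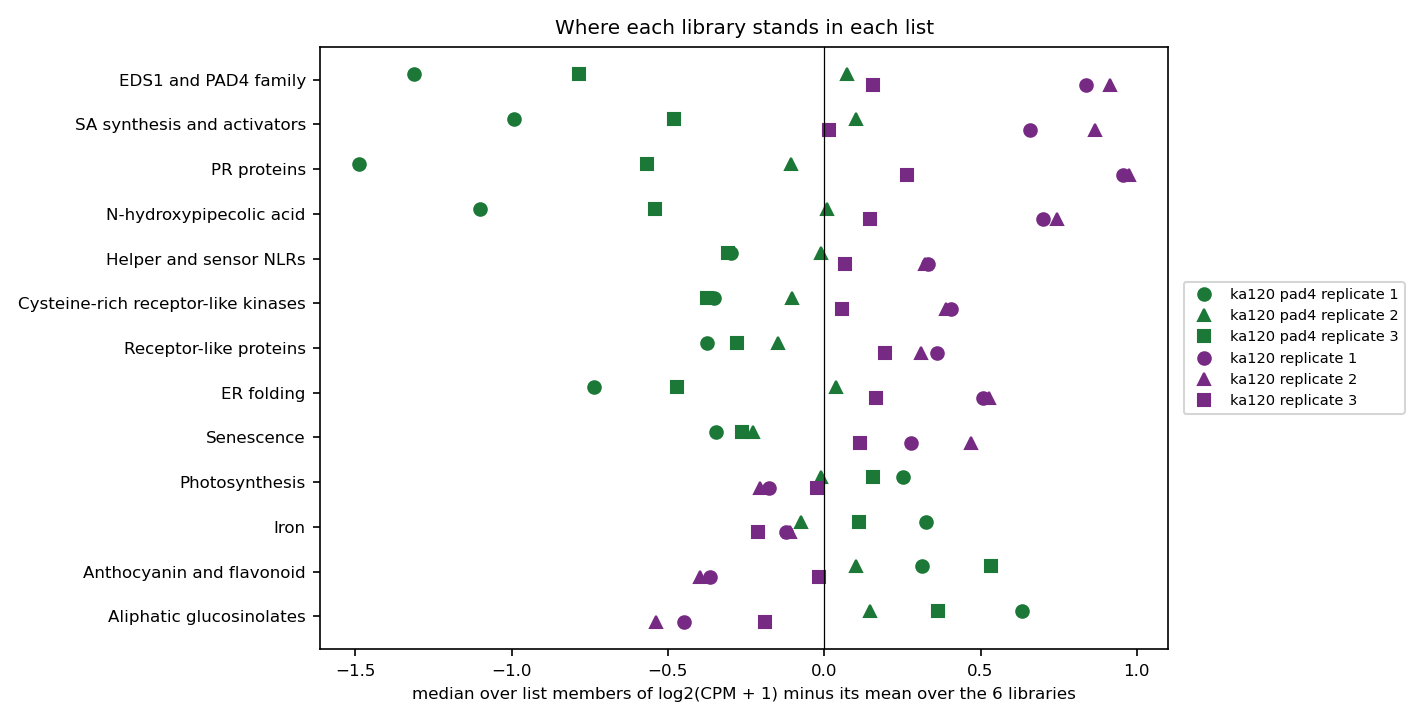
Median deviation of each list's members from the mean of the 6 libraries (log2 of CPM + 1), per library of ka120 pad4 and ka120. In the EDS1 and PAD4 family, the mutated gene PAD4 included, the ka120 pad4 libraries lie at -1.31, 0.07 and -0.78 and the ka120 libraries at 0.84, 0.91 and 0.16.

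Among single genes, the steepest falls included several genes with few or no counts in Col-0. AATP1, an AAA-type ATPase, had 0.221, 0.242 and 0.357 CPM in ka120 pad4, 7.06, 11.3 and 5.27 CPM in ka120 and 0 CPM in all 3 Col-0 libraries. It fell by 4.84 ± 0.35 on the log2 scale (adjusted p = 0.000234), with no overlap. HIPP22, of the heavy-metal-associated isoprenylated proteins, had 0.111, 0.471 and 0.274 CPM in ka120 pad4, 7.06, 6.70 and 4.37 CPM in ka120 and 0.130, 0.607 and 0.0709 CPM in Col-0, so that its ka120 pad4 libraries lay within the Col-0 range (-4.39 ± 0.60, adjusted p = 0.00124). ARD3, an acireductone dioxygenase of the methionine salvage cycle, had 3.76, 22.8 and 5.20 CPM in ka120 pad4, 89.0, 106 and 74.8 CPM in ka120 and 1.53, 1.23 and 1.76 CPM in Col-0 (-3.08 ± 0.54, adjusted p = 0.00327). It was not joined by its pathway, since 2 of 12 methionine salvage and ethylene genes were lower and 2 higher (median -0.004), and ARD1 fell by 0.31 ± 0.09 only. In that list, 1 gene was lower without ka120 pad4 replicate 1 or 3 or ka120 replicate 2, and 1 was higher without ka120 pad4 replicate 3 or ka120 replicate 1 or 2. AT1G33950, of the AIG1 family, had 0.512, 0.983 and 0.151 CPM in ka120 pad4 and 12, 14.8 and 7.38 CPM in ka120 (-4.37 ± 0.49, adjusted p = 0.000991). The peroxidase gene AT4G36430 (-3.84 ± 0.49, adjusted p = 0.000967) and AT4G10860, an uncharacterized protein (-4.84 ± 0.52, adjusted p = 0.000654), fell as steeply.

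Senescence genes were lower in 7 of 12 and higher in 1 (median -0.69); without ka120 pad4 replicate 1 or ka120 replicate 1, 4 were lower, and without ka120 replicate 2, 3. NAP, a NAC factor that drives leaf senescence, had 3.60, 3.43 and 2.23 CPM in ka120 pad4, 8.48, 9.86 and 5.57 CPM in ka120 and 10.8, 12.9 and 14.6 CPM in Col-0. It was below both other genotypes, by 1.37 ± 0.27 against ka120 (adjusted p = 0.00535) and by 2.05 ± 0.27 against Col-0 (adjusted p = 8.56e-05). BCB, a blue copper protein, had 34.5, 63.8 and 54.5 CPM in ka120 pad4 and 125, 142 and 91.5 CPM in ka120 (-1.23 ± 0.22, adjusted p = 0.00362). The sugar transporter gene SAG29 rose (1.34 ± 0.40, adjusted p = 0.0378), a call that was lost without any 1 library of the 6 other than ka120 replicate 3.

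Aliphatic glucosinolate genes rose together. They build methionine-derived defence compounds against herbivores, and 21 of 23 tested members were higher and 0 lower in ka120 pad4, with a median of 0.80 against 0.004 over all genes. Among the activators, MYB29 had 45.4, 33.7 and 45.0 CPM in ka120 pad4, 21.8, 18.1 and 24.0 CPM in ka120 and 50.1, 50.2 and 52.3 CPM in Col-0 (0.96 ± 0.12, adjusted p = 0.000967). Its neighbour MYB76 had 10.5, 6.10 and 6.35 CPM in ka120 pad4, 2.43, 1.8 and 3.35 CPM in ka120 and 4.12, 3.27 and 2.72 CPM in Col-0. MYB76 was above both, by 1.6 ± 0.26 against ka120 (adjusted p = 0.00234) and by 1.18 ± 0.26 against Col-0 (adjusted p = 0.00272). MYB28, another activator of the group, rose by 0.52 ± 0.08 (adjusted p = 0.00212).

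Enzymes of successive steps rose too. In chain elongation, IMD1, an isopropylmalate dehydrogenase, had 422, 298 and 325 CPM in ka120 pad4 and 159, 148 and 201 CPM in ka120 (1.04 ± 0.13, adjusted p = 0.000991). The core enzyme CYP79F1 had 464, 310 and 360 CPM in ka120 pad4 and 200, 169 and 235 CPM in ka120 (0.91 ± 0.15, adjusted p = 0.00234). In side-chain oxidation, FMO GS-OX3 had 113, 84.7 and 97.6 CPM in ka120 pad4, 33.1, 31.8 and 39.3 CPM in ka120 and a Col-0 mean of 88.0 CPM (1.5 ± 0.14, adjusted p = 0.000286). None of these 3 genes overlapped between the mutants. IMD3 (0.09 ± 0.07) and CYP79F2 (0.31 ± 0.15) were the members without a call. Leaving out single libraries gave 19 to 22 higher members. Against Col-0, 8 of the 23 were higher and 3 lower in ka120 pad4, while 1 was higher and 16 lower in ka120, comparisons that share the Col-0 libraries.

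Glutathione S-transferases, some of which serve glucosinolate synthesis, were higher in 10 of 36 and lower in 1 (median 0.27). GSTU20 had 726, 612 and 630 CPM in ka120 pad4, 272, 253 and 350 CPM in ka120 and 650, 563 and 605 CPM in Col-0 (1.17 ± 0.11, adjusted p = 0.000365). GSTF11 had 28.0, 17.8 and 19.8 CPM in ka120 pad4, 6.39, 7.33 and 10.3 CPM in ka120 and 23.1, 19.7 and 18.5 CPM in Col-0 (1.45 ± 0.19, adjusted p = 0.00114). Both passed no test against Col-0 (adjusted p = 0.438 and 0.707). GSTF11 lies within the span of NAC045, annotated on the other strand, which also rose (1.21 ± 0.18, adjusted p = 0.00189). How reads were split between GSTF11 and NAC045 is not known. The stress-induced member GSTU8 was the one lower, with 5.84, 7.55 and 7.21 CPM in ka120 pad4 and 24.8, 28.2 and 16.7 CPM in ka120 (-1.76 ± 0.26, adjusted p = 0.00181); the lower count was 2 without ka120 pad4 replicate 1, 3 without ka120 pad4 replicate 2, 4 without ka120 replicate 3 and 5 when counts were scaled by their totals alone.

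Of 12 flavonoid and anthocyanin genes, 6 were higher and 0 lower (median 0.64). They were enzymes of the pathway: TT4 (chalcone synthase), TT5 (chalcone isomerase), F3H (flavanone 3-hydroxylase), FLS1 (flavonol synthase), DFR (dihydroflavonol reductase) and LDOX. F3H had 137, 113 and 159 CPM in ka120 pad4, 68.8, 67.7 and 69.5 CPM in ka120 and 93.1, 78.6 and 86.5 CPM in Col-0. It was above ka120 by 0.99 ± 0.13 (adjusted p = 0.00107) and above Col-0 by 0.66 ± 0.13 (adjusted p = 0.00131). TT4 had 452, 344 and 477 CPM in ka120 pad4 and 216, 208 and 291 CPM in ka120 (0.83 ± 0.16, adjusted p = 0.0045). The anthocyanin activators PAP1 and MYB90 were not called (adjusted p = 0.208 and 0.342). With single libraries left out, 4 to 7 genes of this list were higher.

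Iron genes moved in both directions. Of 16 tested, 7 were higher and 2 lower (median 0.48), and 1 list member, IRT1's locus AT4G19690, did not pass the filter. The called transcription factor genes of the iron deficiency response included BHLH100 and bHLH39, both at low levels. BHLH100 had 6.04, 1.75 and 2.13 CPM in ka120 pad4, 0.188, 0.256 and 0.0454 CPM in ka120 and 0 CPM in all 3 Col-0 libraries (4.32 ± 0.72, adjusted p = 0.00577). The bHLH39 gene had 3.26, 0.283 and 0.837 CPM in ka120 pad4 and 0, 0.0852 and 0.0909 CPM in ka120 (adjusted p = 0.0238). The neighbouring loci AT1G47400 and AT1G47395, annotated as uncharacterized proteins, rose as well. AT1G47400 had 6.67, 4.66 and 5.18 CPM in ka120 pad4, 0.752, 1.51 and 1.09 CPM in ka120 and 1.76, 0.978 and 1.70 CPM in Col-0 (2.29 ± 0.30, adjusted p = 0.00114). AT1G47395 had 8.37, 4.81 and 6.88 CPM in ka120 pad4, 0.940, 2.09 and 1.68 CPM in ka120 and 2.6, 1.42 and 2.24 CPM in Col-0 (2.09 ± 0.34, adjusted p = 0.0024). Both were also called above Col-0.

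BTS, an E3 ligase that restrains the iron deficiency response, had 158, 103 and 114 CPM in ka120 pad4, 76.6, 88.1 and 84.0 CPM in ka120 and 64.9, 64.8 and 64.8 CPM in Col-0 (0.59 ± 0.13, adjusted p = 0.0076). The regulator PYE (0.53 ± 0.12, adjusted p = 0.011) and the nicotianamine synthase gene NAS4 (0.43 ± 0.09, adjusted p = 0.00563) rose with it. The 2 lower genes encode ferritins, the iron stores of plastids. FER1 had 94.0, 88.2 and 130 CPM in ka120 pad4, 279, 190 and 248 CPM in ka120 and 160, 169 and 160 CPM in Col-0 (-1.20 ± 0.27, adjusted p = 0.00986), and FER4 fell by 0.60 ± 0.11 (adjusted p = 0.00362). The master regulator gene FRU (-0.35 ± 0.28) and the ferric reductase gene FRO2 (0.03 ± 0.28) were not called. Nor were AT3G56970 and AT5G04150, relatives of bHLH39 and BHLH100, or the further ferritin gene AT3G56090. Leaving out single libraries gave 5 to 7 higher members.

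**Figure D4:**
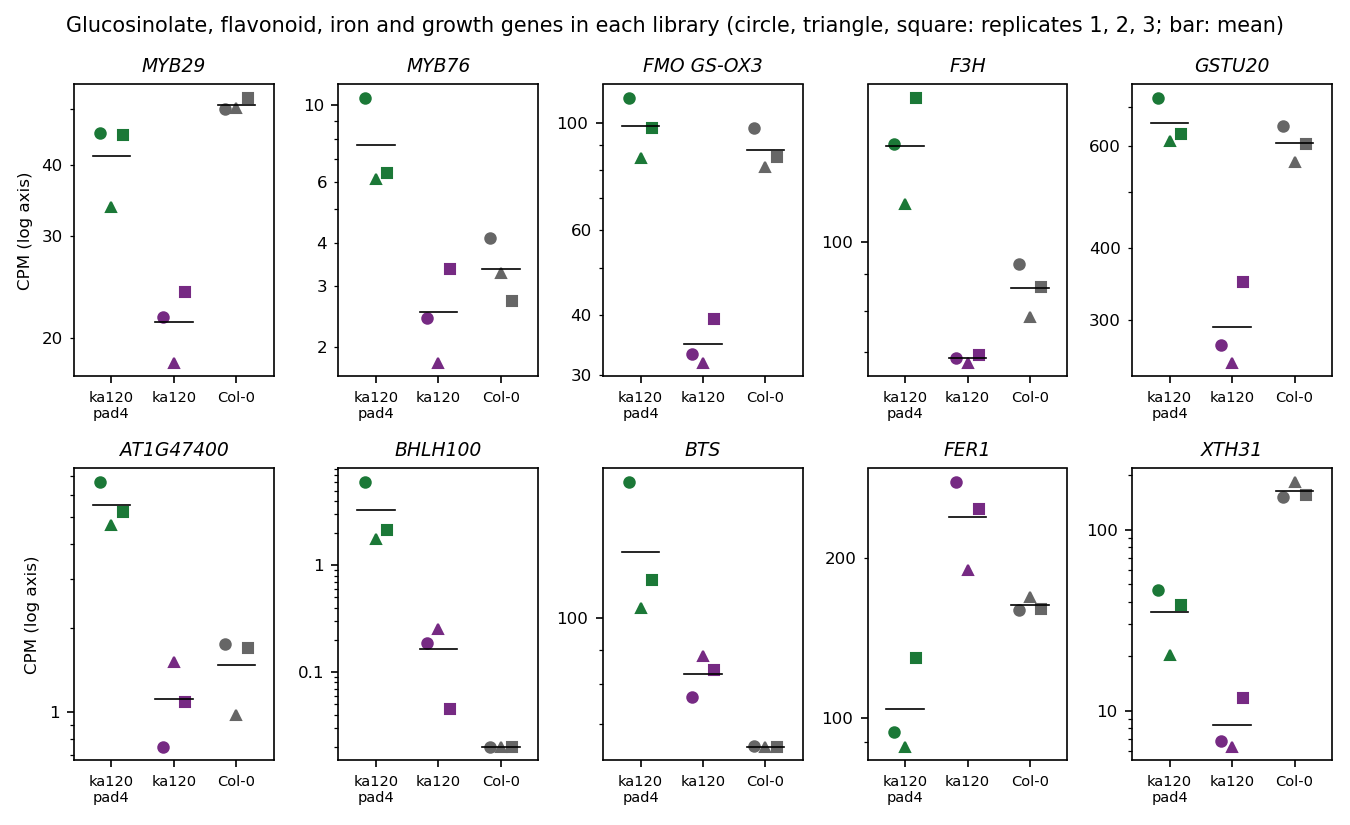
Levels (CPM, log axis) of 10 genes in each library of ka120 pad4, ka120 and Col-0; marker shapes give the replicate number, bars the mean of 3 libraries, and values of 0 are drawn at the bottom. FMO GS-OX3 lies at 84.7 to 113 CPM in ka120 pad4 and 31.8 to 39.3 CPM in ka120, and FER1, the only one of the 10 that fell, at 88.2 to 130 CPM in ka120 pad4 and 190 to 279 CPM in ka120.

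Photosynthesis genes rose in 19 of 33 and fell in 1, by small amounts (median 0.27). RBCS1A, the Rubisco small subunit, had 19060, 15790 and 18360 CPM in ka120 pad4, 12450, 11840 and 13730 CPM in ka120 and 19550, 20140 and 19670 CPM in Col-0 (0.49 ± 0.07, adjusted p = 0.00195). The carbonic anhydrase gene CA1 had 2853, 2045 and 2518 CPM in ka120 pad4, 1491, 1460 and 1929 CPM in ka120 and 5214, 5696 and 5234 CPM in Col-0 (0.60 ± 0.12, adjusted p = 0.0061). LHB1B1, a light-harvesting gene, was the one that fell, with 496, 614 and 447 CPM in ka120 pad4 and 865, 815 and 756 CPM in ka120 (-0.65 ± 0.12, adjusted p = 0.00375). RBCS1A and LHB1B1 have near-identical copies, so their values are uncertain. The count of 19 was 8 without ka120 pad4 replicate 1, 10 without ka120 pad4 replicate 3, 8 without ka120 replicate 1 and 7 without ka120 replicate 2. In chlorophyll synthesis, 3 of 13 were higher and 2 lower (median 0.14), the lower being PORA (-1.71 ± 0.27, adjusted p = 0.00231) and the regulator GPRI1, or GLK1 (-0.51 ± 0.08, adjusted p = 0.00185). The higher count was 6 without ka120 pad4 replicate 2 and 5 without ka120 replicate 3.

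Among wall-loosening XTH enzymes, which cut and rejoin xyloglucan, 6 of 24 were higher and 1 lower (median 0.24). XTH31 had 46.4, 20.3 and 38.5 CPM in ka120 pad4, 6.85, 6.33 and 11.7 CPM in ka120 and 151, 184 and 155 CPM in Col-0. It was thus above ka120 by 2.08 ± 0.29 (adjusted p = 0.00127) and below Col-0 by 2.22 ± 0.28 (adjusted p = 6.01e-05). XTH8 had 12.6, 13.0 and 14.7 CPM in ka120 pad4 and 6.33, 6.92 and 8.21 CPM in ka120 (0.91 ± 0.11, adjusted p = 0.000883). XTH10 was the one lower, with 1.27, 1.87 and 1.36 CPM in ka120 pad4, 5.50, 10.9 and 2.54 CPM in ka120 and 2.08, 1.43 and 0.978 CPM in Col-0 (-2.08 ± 0.45, adjusted p = 0.00838). Of 68 auxin-induced SAUR genes, 8 were higher and 2 lower (median 0.12), shares near or below those over all genes; 5 were higher without ka120 pad4 replicate 1 or ka120 replicate 1 and 4 without ka120 replicate 2, and 5 were lower without ka120 pad4 replicate 2.

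A smaller set of the 22351 genes tested lay outside the range spanned by ka120 and Col-0: 200 above both and 196 below both. Each was called against both, had no overlap with any ka120 or Col-0 library, and averaged at least 5 CPM on the higher side. ASPGB1, an asparaginase, had 45.4, 36.4 and 41.6 CPM in ka120 pad4, 10.3, 8.51 and 21.6 CPM in ka120 and 19.9, 13.1 and 14.6 CPM in Col-0 (1.61 ± 0.36 against ka120, adjusted p = 0.00986). AT2G14247, an uncharacterized protein, had 8.71, 4.52 and 4.03 CPM in ka120 pad4, 0.305, 0.426 and 0.705 CPM in ka120 and 0.195, 0.0674 and 0.0567 CPM in Col-0 (3.58 ± 0.67 against ka120, adjusted p = 0.00426). Below both lay J11, a chloroplast DnaJ protein, with 44.2, 48.8 and 45.5 CPM in ka120 pad4, 122, 139 and 95.1 CPM in ka120 and 63.4, 95.3 and 66.4 CPM in Col-0. Its differences were -1.36 ± 0.16 against ka120 (adjusted p = 0.000883) and -0.70 ± 0.16 against Col-0 (adjusted p = 0.00401). The auxin response gene IAA29 had 2.28, 2.54 and 1.69 CPM in ka120 pad4, 6.29, 5.12 and 6.02 CPM in ka120 and 4.0, 4.45 and 3.94 CPM in Col-0 (-1.42 ± 0.16 against ka120, adjusted p = 0.000725). These genes share the calls in both comparisons, the lack of overlap and the minimum level because they were chosen by those conditions.

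Other pathways had shares near those over all genes, or few calls. Of 23 jasmonate and ethylene genes, 2 were higher, ORA59 (1.54 ± 0.35, adjusted p = 0.011) and JAZ6 (0.61 ± 0.11, adjusted p = 0.00392), and 2 lower, JAR1 and COI1 (median 0.11). The ethylene and jasmonate factor ORA59 had 2.68, 2.83 and 3.43 CPM in ka120 pad4 and 0.705, 1.02 and 1.34 CPM in ka120; its call was lost without ka120 replicate 1, JAR1's call without ka120 replicate 2. Of 16 abscisic acid, drought and cold genes, 1 was higher and 2 lower (median 0.07), and of 12 clock genes 0 were higher and 2 lower (median -0.06). Camalexin genes had 1 of 8 higher and 1 lower, and PAD3, which makes camalexin, stood at 0.747, 1.71 and 8.52 CPM in ka120 pad4 and 4.25, 4.39 and 1.27 CPM in ka120, with overlapping groups (adjusted p = 0.931). Replication genes were lower in 3 of 12 (median -0.16), and heat shock genes lower in 3 of 9 and higher in 1 (median -0.33). Of 12 nuclear transport genes (importins, exportins and nuclear pore proteins), 0 were called, although 2 were lower when counts were scaled by their totals alone. NAC factors were lower in 10 of 81 and higher in 2 (median -0.20), with 17 lower without ka120 pad4 replicate 2, and wall-associated kinases lower in 2 of 4. The higher NAC factors include NAC045, whose span holds GSTF11. Alpha-expansins were higher in 2 of 14, and 1 was higher without ka120 pad4 replicate 1 or 3 or ka120 replicate 1 or 2. Of 7 reference genes, 1, the actin gene ACT2, was higher (median 0.04). These small counts rest on single libraries. Without ka120 replicate 2, JAR1, COI1, ACT2, the wall-associated kinases and the lower camalexin gene had 0 calls, and 1 heat shock gene, 1 replication gene, 1 clock gene and 1 abscisic acid gene stayed lower. Without ka120 pad4 replicate 1 the wall-associated kinases, ACT2 and the lower camalexin gene likewise had 0 calls, and 1 heat shock gene, 1 clock gene and 1 abscisic acid gene stayed lower.

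**Figure D5:**
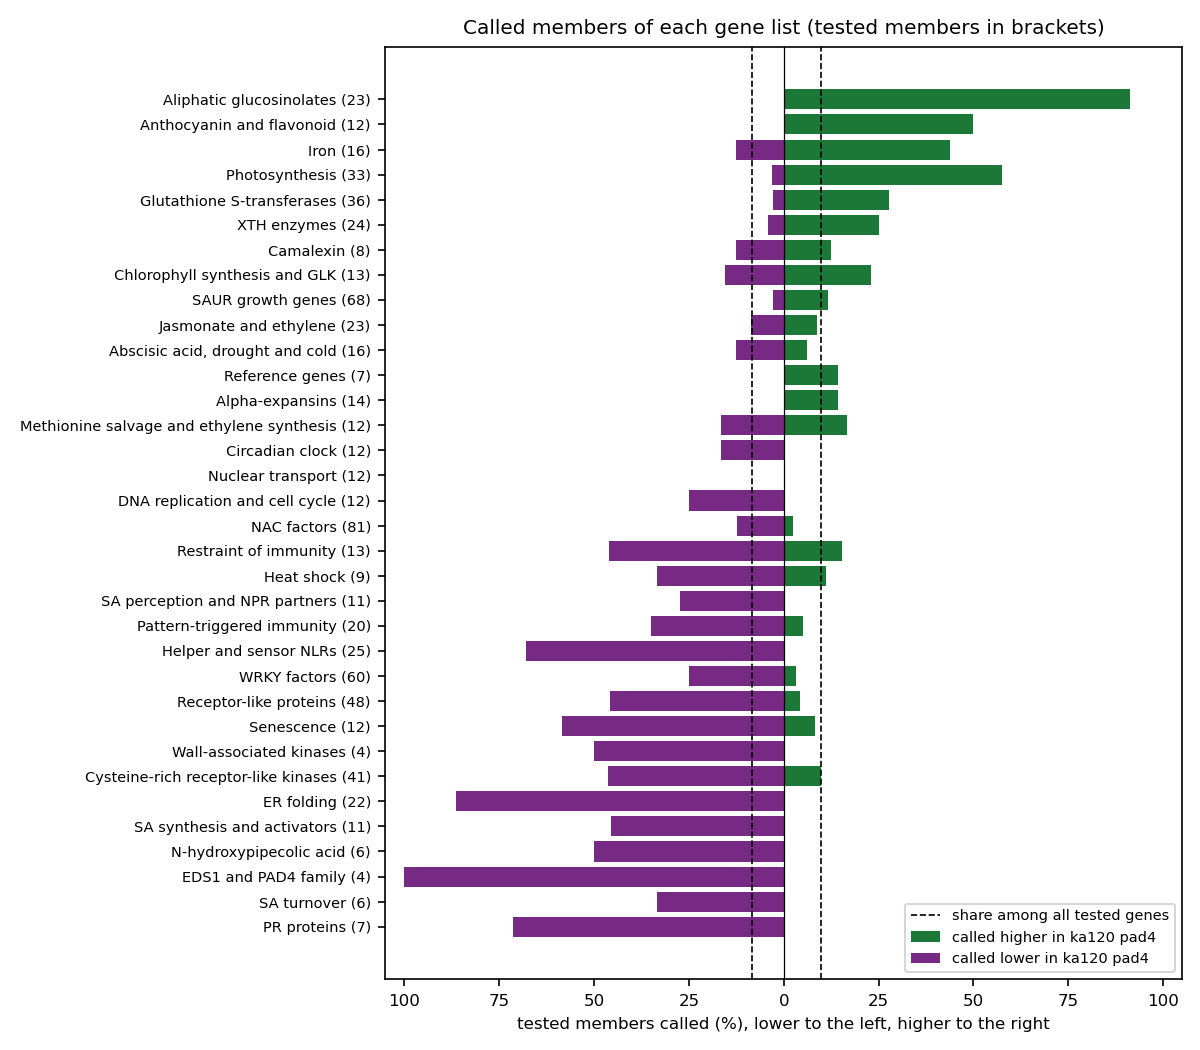
Percent of each list's tested members that were called higher or lower in ka120 pad4 than in ka120; dashed lines give the shares over all genes tested, 9.83% higher and 8.39% lower. ER folding (19 of 22) has the longest bar on the lower side after the EDS1 and PAD4 family (4 of 4), and aliphatic glucosinolates (21 of 23) the longest on the higher side. The EDS1 and PAD4 family includes the mutated gene PAD4.

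Set against the other mutant directly, ka120 pad4 had 337 genes higher (1.51%) and 198 lower (0.886%) than ka120 ndr1. PAD4 itself had 42.4, 64.4 and 42.2 CPM in ka120 ndr1, every library above every ka120 pad4 library, and was lower in ka120 pad4 by 1.97 on the log2 scale (adjusted p = 0.00905), as were ARD3 (-2.81, adjusted p = 0.0206) and CRK13 (-2.07, adjusted p = 0.00995). PR1 (-0.59, adjusted p = 0.442), EDS1 (-0.70, adjusted p = 0.26) and BIP3 (-1.07, adjusted p = 0.142) were not called, and PR4 was higher in ka120 pad4 (1.09, adjusted p = 0.0357). Flavonoid genes were higher in 8 of 12 and 0 lower (median 0.90), with DFR at 55.6, 52.4 and 66.8 CPM in ka120 pad4 and 30.3, 20.9 and 27.9 CPM in ka120 ndr1 (1.14, adjusted p = 0.00622) and MYB90 at 2.62 (adjusted p = 0.00903). Iron genes were higher in 7 of 16 and lower in 1, with AT1G47400 at 0.793, 0.526 and 0.527 CPM in ka120 ndr1 (3.15, adjusted p = 0.000872). Other lists held fewer calls, with 0 among 22 ER folding genes, 25 NLRs, 48 RLPs and 11 SA perception genes. Higher were 3 of 23 aliphatic glucosinolate genes, 7 of 36 glutathione S-transferases and 2 of 7 PR genes. Lower were 4 of 12 replication genes, 3 of 41 CRKs and 1 of 33 photosynthesis genes. NDR1, a membrane protein needed by several coiled-coil NLRs, had 5.28, 8.47 and 7.84 CPM in ka120 pad4 and 13.4, 14.4 and 11.5 CPM in ka120, and missed the threshold against ka120 (-0.87 ± 0.28, adjusted p = 0.0513). It was called lower under 7 alternatives, among them RLE scaling, the 6 libraries alone, DESeq2 and the fit without ka120 pad4 replicate 2, with adjusted p-values from 0.000349 to 0.554 over all alternatives.

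Some of the steepest differences lie in genes whose reads are shared or whose counts jump between libraries. The 18S ribosomal RNA locus AT2G01010 had 0.0830, 0.108 and 0.0686 CPM in ka120 pad4, 424, 429 and 400 CPM in ka120 and 0.0977, 0.118 and 0.113 CPM in Col-0, while the RNA gene ENSRNA049494572 had 568, 604 and 573 CPM in ka120 pad4, 0.0822, 0.0852 and 0.0682 CPM in ka120 and 1006, 698 and 679 CPM in Col-0. Another such locus, AT3G41768, had 79721, 84717 and 79975 counts in ka120 pad4 and 66314, 79261 and 70514 counts in ka120. In ka120 ndr1, AT2G01010 had 7, 8 and 7 counts and ENSRNA049494572 had 53197, 40771 and 42599 counts. At AT2G01010 and ENSRNA049494572, therefore, only the ka120 libraries stood apart, all 3 of them. These values are uncertain, since near-identical copies can exchange reads. Why the difference is confined to the ka120 libraries was not tested. The ribosomal protein gene AT1G08360 had 217, 136 and 266 CPM in ka120 pad4, 9.45, 9.05 and 9.18 CPM in ka120 and 161, 366 and 116 CPM in Col-0 (4.48 ± 0.39, adjusted p = 0.000234), and shares its family with AT2G27530 and AT5G22440. Its ka120 ndr1 libraries had 400, 400 and 395 CPM, so here too only the ka120 libraries stood apart. AT1G67865 had 94.7, 126 and 84.8 CPM in ka120 pad4 and 3.50, 3.68 and 11.8 CPM in ka120 (4.01 ± 1.05, adjusted p = 0.0209), but its counts in the 3 ka120 ndr1 libraries were 97, 5975 and 808 and its call was lost without ka120 replicate 1 or 2. In any genotype, 50 of the genes tested spanned over 10-fold between libraries of 1 genotype at 10 CPM or more, and 3 of these were among the calls.

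Calls were also counted by distance from PAD4. Within 0.5 megabases on each side, 32 of 266 tested genes were lower (12%) and 26 higher (9.77%), beside 8.39% and 9.83% over all genes. Within 1 megabase on each side, 50 of 490 tested genes were lower (10.2%) and 51 higher (10.4%), and within 2 megabases 91 of 975 were lower (9.33%) and 102 higher (10.5%). The share of lower genes was thus highest in the nearest window; whether linkage to PAD4 plays a part was not tested. By chromosome, 8.23% to 9.05% of tested genes were lower and 9.71% to 10.3% higher.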

How the data were processed

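Strand-specific mRNA libraries of 3-week-old rosette leaves were sequenced, per the labels' protocols. The submitters' processing notes name HISAT2 2.0.4, HTSeq 0.6.1p1 and TAIR10, with no role or order; the sources used here do not give the strand setting of the counting. The values deposited by the authors were taken to be expected counts per gene, not normalized, for 34262 genes. Since 0 values were not whole, rounding changed nothing. Between values of 4 and 40, the share of multiples of 4 was 45.7% to 48.1% per library, against 25% by chance, and how the totals relate to sequenced fragments was not tested. The log2 values that the authors also deposited, for 22605 genes, were the log2 of count + 0.5 over a constant per library and served as 1 alternative. Symbols and coordinates came from TAIR10.1, which matched 32548 identifiers and left 1714 unmatched; AT3G08960 was taken as KA120 from background knowledge.

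In R 4.3.3, edgeR 4.0.16 gave quasi-likelihood F tests on TMM-scaled counts after filterByExpr had removed 11911 genes. All 12 libraries entered 1 model with a coefficient for each genotype, leaving 8 residual degrees of freedom. Standard errors are approximate, the size of a log2 difference divided by the root of its F value. The test was checked on simulated counts, drawn independently for each gene and library. They held no shift shared by many genes of a library, so the check does not cover the spread between libraries described above. Alternatives were RLE, upper-quartile and total-count scaling, no filter and a stricter filter (1 CPM in 3 libraries), the 6 libraries alone, a replicate block, leaving out each library, DESeq2 1.42.0 and limma 3.58.1 on the log2 values; counts divided by 4 were added after seeing the data.

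The gene lists and members were chosen with earlier results of these data known. Genes were named by a rule: per direction, the 12 called genes with the largest change, no overlap and at least 5 CPM in the higher group; 3 per list with the smallest p; 5 per direction beyond both ka120 and Col-0; the mutated loci; and PR1, BGL2, PR5, BIP3 and SDF2. Not every gene picked by this rule is described above. Among those left out are AT5G63225 (-5.80 to -5.05 with single libraries left out), AT1G68600 (1.52 to 1.70) and SDF2 (-0.88 to -0.48). Other list members and the regional counts were named after their values were seen. Promoter windows were read from the TAIR10.1 genome and annotation.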

Additional observations from a re-analysis of the deposited data

How the results depend on the processing

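No call of the comparison of ka120 pad4 with ka120 changed sign under any alternative run. The 4072 calls became 2634, 1329 of them higher, when the 6 libraries were fitted alone, and 661 when at least a 2-fold change was asked as well. Scaling by total counts alone gave 2909 lower calls, against 1876, and shifted the median log2 difference by -0.083. By list, that scaling also gave 6 lower replication genes (3 in the report), 4 lower iron genes (2), 4 lower chlorophyll genes (2) and 2 lower nuclear transport genes (0). With the 6 libraries alone, 11 ER folding genes, 8 WRKY genes and 2 of the EDS1 and PAD4 family were lower, and 7 photosynthesis genes were higher. RLE and upper-quartile scaling, both other filters, DESeq2 (4951 calls), limma on the authors' log2 values (4061) and counts divided by 4, an alternative chosen after seeing the data (4412), kept the counts over all genes and over all lists together within 1.5 times. Small counts of single lists moved further: with DESeq2, 5 chlorophyll genes (3 in the report) and 4 RLPs (2) were higher and 5 SAUR genes (2) lower, with counts divided by 4, 5 N-hydroxypipecolic acid genes (3) were lower, and with limma, 0 camalexin genes (1) and 1 wall-associated kinase (2). Leaving out 1 library gave 1885 to 4764 calls, 1059 to 2520 higher and 826 to 2244 lower, 356 to 920 of at least 2-fold, and 63 to 119 higher (main 104) and 85 to 191 lower (main 167) list members. The lowest counts came without ka120 replicate 2 and the highest without ka120 pad4 replicate 2. With the replicate number as a block there were 4252 calls, 2220 higher and 2032 lower; deviations of same-numbered libraries correlated at -0.055, 0.078 and -0.033, so the numbers are not taken to pair samples. Of the 128 named genes, 104 to 125 kept their side of the threshold when 1 library was left out. The cause of these shifts was not tested. With 3 libraries per genotype and genes near 0 counts, folds of genes such as WRKY38 and bHLH39 rest on few counts.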
